A study of Saccharomyces cerevisiae with 15 samples.

Results

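The genes described here make the enzymes and factors that run cytosolic protein synthesis in the budding yeast Saccharomyces cerevisiae. They are 18 genes of aminoacyl-tRNA synthetases and 20 genes of initiation, elongation and release factors. Members were taken by gene symbol from a fixed list of 38 genes, out of 5656 genes with a probe set of their own. No signal threshold entered, but the list was chosen with earlier results of these data known. The array carried 39 probe sets for them among 9275 probe sets tested, since TEF4 has 2 and every other member 1. All 39 were included in every comparison, and no filter on dim signal removed any of them.

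A tRNA synthetase joins one amino acid to the tRNAs that decode it, so each enzyme supplies one kind of charged tRNA to the ribosome. Initiation factors bring the methionyl initiator tRNA and the messenger RNA to the small ribosomal subunit. eIF2 carries the initiator tRNA, eIF2B reloads eIF2 with GTP, eIF3 holds the assembly together, and eIF4E binds the cap of the messenger RNA. Elongation factors then deliver charged tRNAs and move the ribosome, and a release factor ends synthesis at a stop codon. Phosphorylation of eIF2 blocks eIF2B, which lowers initiation in general and raises translation of the activator Gcn4. Mbf1, one of the proteins deleted here, is a coactivator that works with Gcn4.

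RNA was measured on 15 arrays in 5 groups of 3. Every strain was MATa of the BY4741 background and carried a fragment of human huntingtin, the protein altered in Huntington's disease. One group expressed the fragment with 25 glutamines (Htt25Q) and is labelled wild-type. The second expressed the mutant fragment with 103 glutamines (Htt103Q), which the labels describe as inducible by galactose, in the same strain background. The other three groups also expressed Htt103Q and lacked BNA4 (kynurenine 3-monooxygenase, on the path from tryptophan to NAD), MBF1 or UME1 (a subunit of Rpd3 histone deacetylase complexes). These deletions were studied as suppressors of Htt103Q. Cells were started at an optical density of 0.2 in 12 mL of uracil-free synthetic medium with galactose at 2%, kept at 30 °C, and harvested near 1. The labels give neither the number of transformants nor whether the arrays of a group came from separate cultures. The p-values therefore measure array-to-array spread, which may be technical.

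The deposited arrays formed 2 processing sets, recognised by their exact lowest value, and groups are compared within a set. In the first set, 9 arrays covered the ume1 deletion, Htt25Q and Htt103Q (deposited medians 6.35 to 6.47). In the second, 6 arrays covered the mbf1 and bna4 deletions (6.78 to 6.84). Each deleted gene lay near the lowest signal in its own strain: the mean log2 signal of BNA4 was 2.12 in the bna4 deletion against 5.14 to 7.84 elsewhere, that of MBF1 was 2.09 in the mbf1 deletion against 10.3 to 11.6, and that of UME1 was 2.34 in the ume1 deletion against 6.88 to 7.05. The a-cell pheromone genes MFA1 and MFA2 and the a-cell receptor gene STE2 had signals of 8.32 to 13.1 on every array. The other a-cell genes looked at were STE6, at 7.21 to 9.22, BAR1, at 8.75 to 10.7, and ASG7, at 3.15 to 6.05. Of the 4 alpha-cell genes MF(ALPHA)2 lay at the floor, at 2.04 to 2.07, and STE3 at 2.20 to 4.32. MF(ALPHA)1 lay at 2.19 to 6.93, highest in Htt25Q, and SAG1 at 4.87 to 6.08. ASG7 thus lay in the range of some alpha-cell genes, but signals of different probe sets depend on their probes, so these genes cannot be ranked. Array 1 of Htt25Q stood apart. Its actin control had a 3′ signal 2.48 above the 5′ signal on the log2 scale, a sign of RNA quality, against −0.33 to 0.31 on the other 14 arrays. Array 1 of the ume1 deletion had a mean 18S ribosomal RNA control signal of 10.4, against 5.90 to 8.08 on the other arrays of the first set. In the second set that control lay at 11.0 to 11.1 in the bna4 deletion and at 9.66 to 10.7 in the mbf1 deletion. Array 1 of Htt25Q and array 1 of the ume1 deletion were left out in turn. Any single array was left out only in comparisons that include its group. Where this changes a member's log2 difference by a factor over 1.5, the value without the array stands beside the result for the genes described singly.

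**Figure D1:**
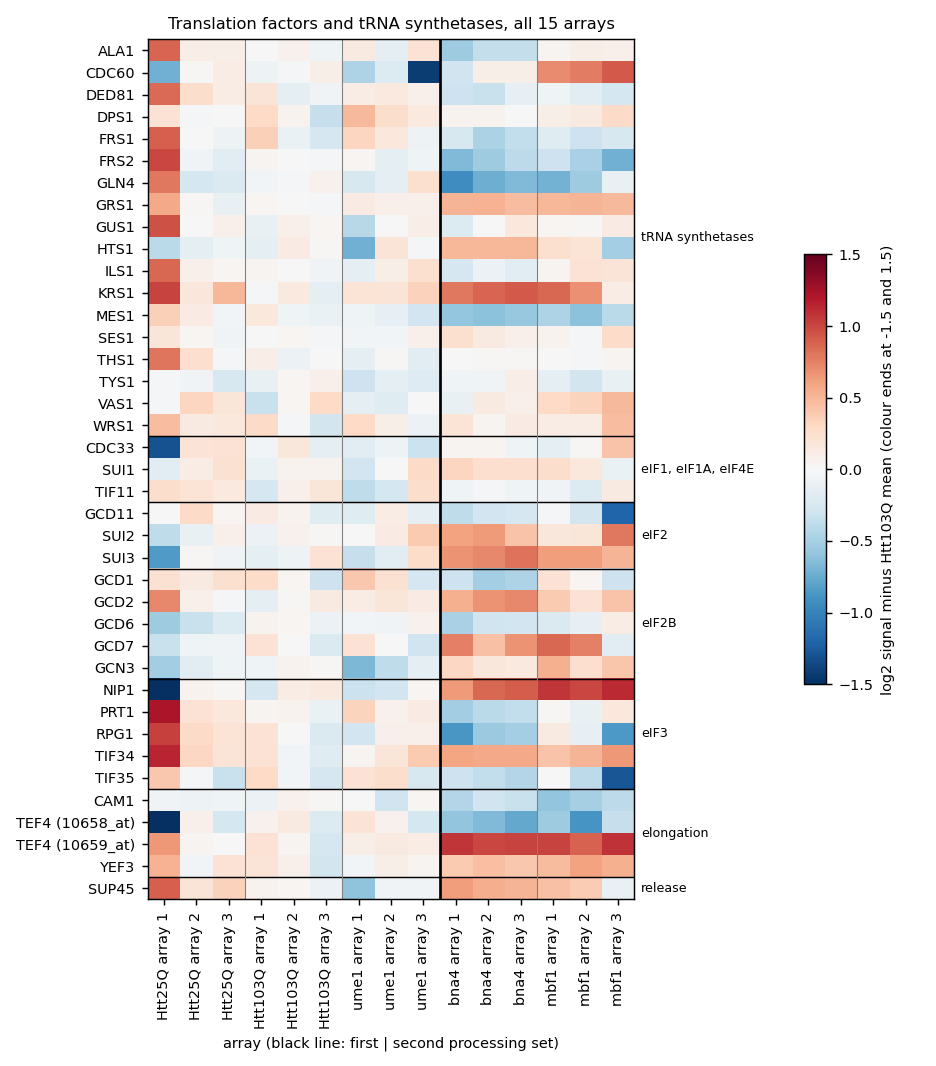
Log2 signal of the 39 probe sets (rows, grouped by role) on each of the 15 arrays (columns), as the difference from the Htt103Q mean of the same probe set. Colours end at −1.5 and 1.5, and the black line parts the processing sets. Array 1 of Htt25Q carries most of the strong colours of the first set, red for most synthetases and blue for TEF4 (10658_at), NIP1 and CDC33.

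Signals below are quantile normalized log2 values. One linear model was fitted with limma to all 15 arrays, and a probe set was called when its p, adjusted by the Benjamini-Hochberg method over all 9275 probe sets, was under 0.05. Signals of different probe sets depend on their probes and are not compared with each other. Each signal is a bulk measurement, in which fewer cells with an RNA and less RNA per cell cannot be told apart. Across the 5 groups the means of one probe set spanned 0.15 to 1.60 on the log2 scale, with a median span of 0.64. The span was over 1, a 2-fold difference, for 6 probe sets: NIP1 (1.60), CDC60 (1.49), RPG1 (1.15), SUI3 (1.03) and both of TEF4 (1.04 and 1.03).

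Within the processing sets, none of the 39 probe sets was called in any of 4 comparisons. For Htt103Q against Htt25Q the count was 0 of 39, where 4.44% of all probe sets were called, and 6 members had an unadjusted p under 0.05, against 17.3% of all probe sets. For the ume1 deletion against Htt103Q it was 0 of 39 against 2.6% of all, with 3 members under an unadjusted 0.05, against 13.4%. For the ume1 deletion against Htt25Q it was 0 of 39 against 7.86%, with 4 members under an unadjusted 0.05, against 23.5%. For the mbf1 against the bna4 deletion it was 0 of 39 against 10.5%, with 4 members under an unadjusted 0.05, against 21.2%. A p that misses the threshold does not show equal levels, but the size of the differences is bounded. The 95% interval lay wholly within a 2-fold change either way for 32, 36, 34 and 35 of the 39 probe sets in these comparisons, in the order given.

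**Figure D2:**
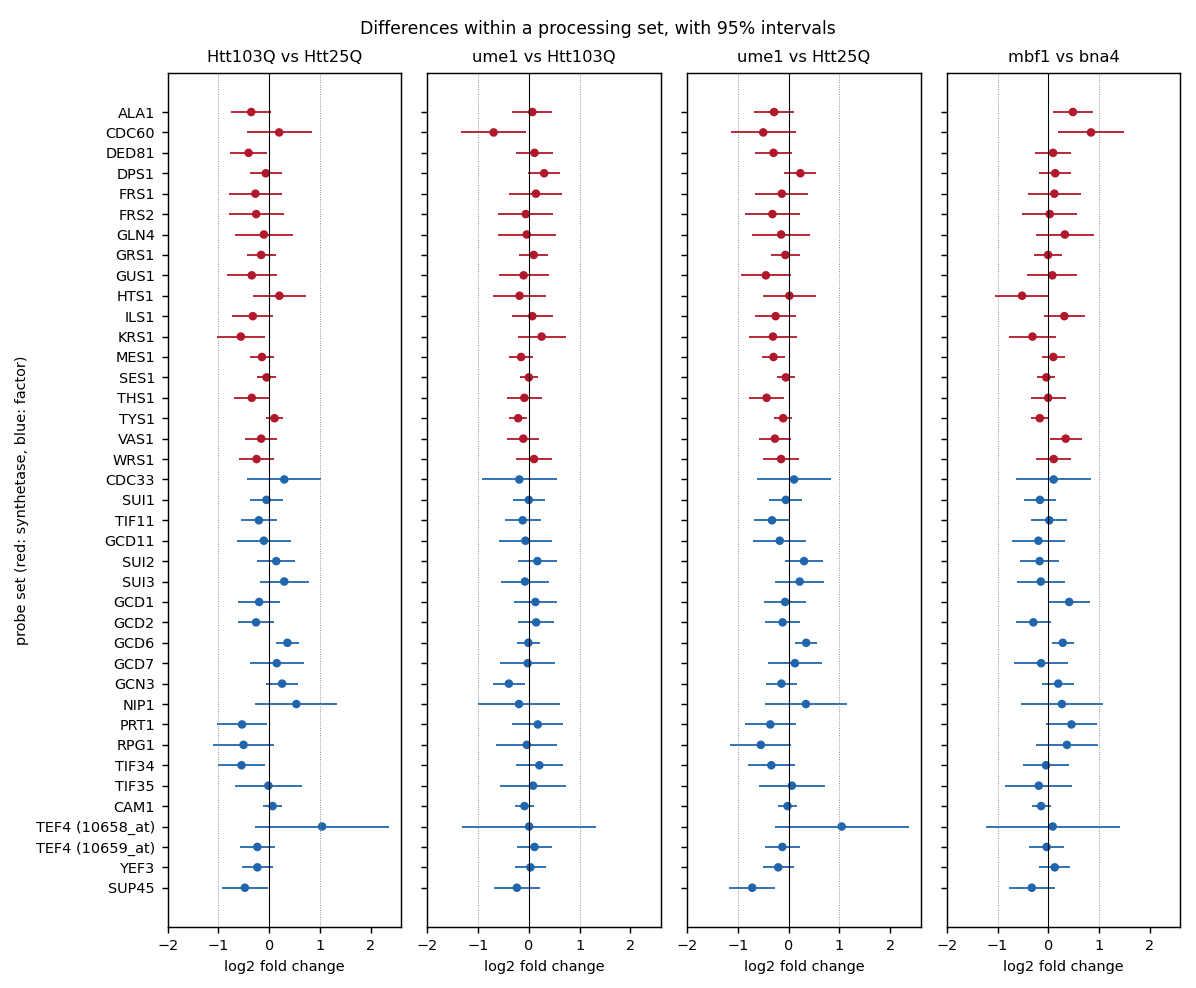
Log2 fold change of each probe set (point) with its 95% interval (line) in the 4 comparisons made within a processing set, synthetases in red and factors in blue. Dotted lines mark a 2-fold change. The widest interval is that of TEF4 (10658_at), from −0.28 to 2.36 for Htt103Q against Htt25Q, and CDC60 has the largest positive value for the mbf1 against the bna4 deletion, 0.84.

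The number of members whose arrays did not overlap between the groups was also close to or below that of the array as a whole. It was 6 of 39 for Htt103Q against Htt25Q, where 18.9% of all probe sets did not overlap. GCD6 and GCN3 lay higher, and ALA1, KRS1, PRT1 and SUP45 lower. For the ume1 deletion against Htt103Q it was 6 of 39 (20.4% of all), with GRS1, KRS1 and PRT1 higher and CDC60, TYS1 and GCN3 lower. Against Htt25Q the ume1 deletion had 4 of 39 (21.4% of all), with GCD6 higher and MES1, RPG1 and SUP45 lower. For the mbf1 against the bna4 deletion it was 15 of 39 (37.3% of all), with 10 higher and 5 lower.

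The synthetase genes cover alanine (ALA1), glycine (GRS1), isoleucine (ILS1), leucine (CDC60), valine (VAS1), methionine (MES1), lysine (KRS1), histidine (HTS1), asparagine (DED81), aspartate (DPS1), glutamate (GUS1), glutamine (GLN4), threonine (THS1), serine (SES1), tyrosine (TYS1), tryptophan (WRS1) and phenylalanine (FRS1 and FRS2, the beta and alpha subunits). Between Htt25Q and Htt103Q, 15 of the 18 had a lower mean in Htt103Q, with a median log2 fold change of −0.20, while 47.8% of all probe sets were below 0 and their median was 0. The values ran from −0.56 for KRS1 to 0.20 for HTS1, and none was called. The shift rested on array 1 of Htt25Q. That array held the highest signal of the 9 arrays of the first set for 13 of 18 synthetases and the lowest for none. Without it, 10 of 18 were below 0 with a median of −0.04, against 46.2% of all probe sets.

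KRS1 shows the weight of that array in a single gene. Its signals were 11.91, 11.07 and 11.39 in Htt25Q and 10.88, 11.05 and 10.77 in Htt103Q. The groups did not overlap, although the gap between array 2 of Htt25Q and array 2 of Htt103Q was small. The log2 difference was −0.56 (SE 0.21, limma adjusted p = 0.199), and it was −0.33 without array 1 of Htt25Q. In the ume1 deletion KRS1 had 11.10, 11.09 and 11.25, all above the Htt103Q arrays and within the range of Htt25Q, with a log2 difference of 0.25 against Htt103Q (SE 0.21, adjusted p = 0.694).

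CDC60, which charges the leucine tRNAs, differed most among the synthetases. Its signals were 8.52, 9.25 and 9.35 in Htt25Q, 9.16, 9.22 and 9.33 in Htt103Q, and 8.77, 9.03 and 7.81 in the ume1 deletion. All 3 arrays of the ume1 deletion lay below all of Htt103Q, and array 3 lay lowest. The log2 fold change against Htt103Q was −0.70 (SE 0.29, adjusted p = 0.322), and it was −0.33 without array 3 of the ume1 deletion. In the second set the signals were 8.94, 9.32 and 9.32 in the bna4 deletion and 9.94, 10.0002 and 10.15 in the mbf1 deletion. The mbf1 arrays were thus above every other array of the series. The log2 fold change of the mbf1 against the bna4 deletion was 0.84 (SE 0.29, 95% interval 0.20 to 1.48), with an adjusted p of 0.104.

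That comparison depended on which arrays lent the estimate of the spread. In the fit to all 15 arrays CDC60 shares its spread with Htt25Q and the ume1 deletion, where its SDs were 0.45 and 0.64, against 0.22 and 0.11 in the bna4 and mbf1 deletions. When the 6 arrays of the second set were normalized and fitted alone, 3 members were called, all higher in the mbf1 deletion, where 13.7% of all probe sets were called. They were CDC60 (0.80, adjusted p = 0.0212), ALA1 (0.45, adjusted p = 0.0119) and PRT1 (0.41, adjusted p = 0.0388). ALA1 had 10.30, 10.48 and 10.47 in the bna4 deletion and 10.87, 10.92 and 10.90 in the mbf1 deletion. Its arrays were nearly alike within each strain and well apart between them. In the fit to all arrays its log2 fold change was 0.48 (SE 0.18, adjusted p = 0.129).

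HTS1 went the other way in the same pair of strains. It had 11.24 on all 3 arrays of the bna4 deletion, where it took the same rank on each and quantile normalization gives equal ranks one value, and 10.99, 10.95 and 10.23 in the mbf1 deletion, so that every mbf1 array was lower, and array 3 the lowest. Its log2 fold change was −0.52 (SE 0.24, adjusted p = 0.242), and −0.27 without array 3 of the mbf1 deletion. DPS1 was the synthetase with the largest positive difference between the ume1 deletion and Htt103Q, with 11.78, 11.55 and 11.43 against 11.58, 11.34 and 10.94. Those groups overlapped, and the log2 fold change was 0.30 (SE 0.14, adjusted p = 0.410), or 0.12 without array 3 of Htt103Q. The other synthetases lay between −0.32 and 0.34 for the mbf1 against the bna4 deletion, apart from ALA1, CDC60 and HTS1. SES1 was the steadiest member of all, with 5 group means within 0.15.

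**Figure D3:**
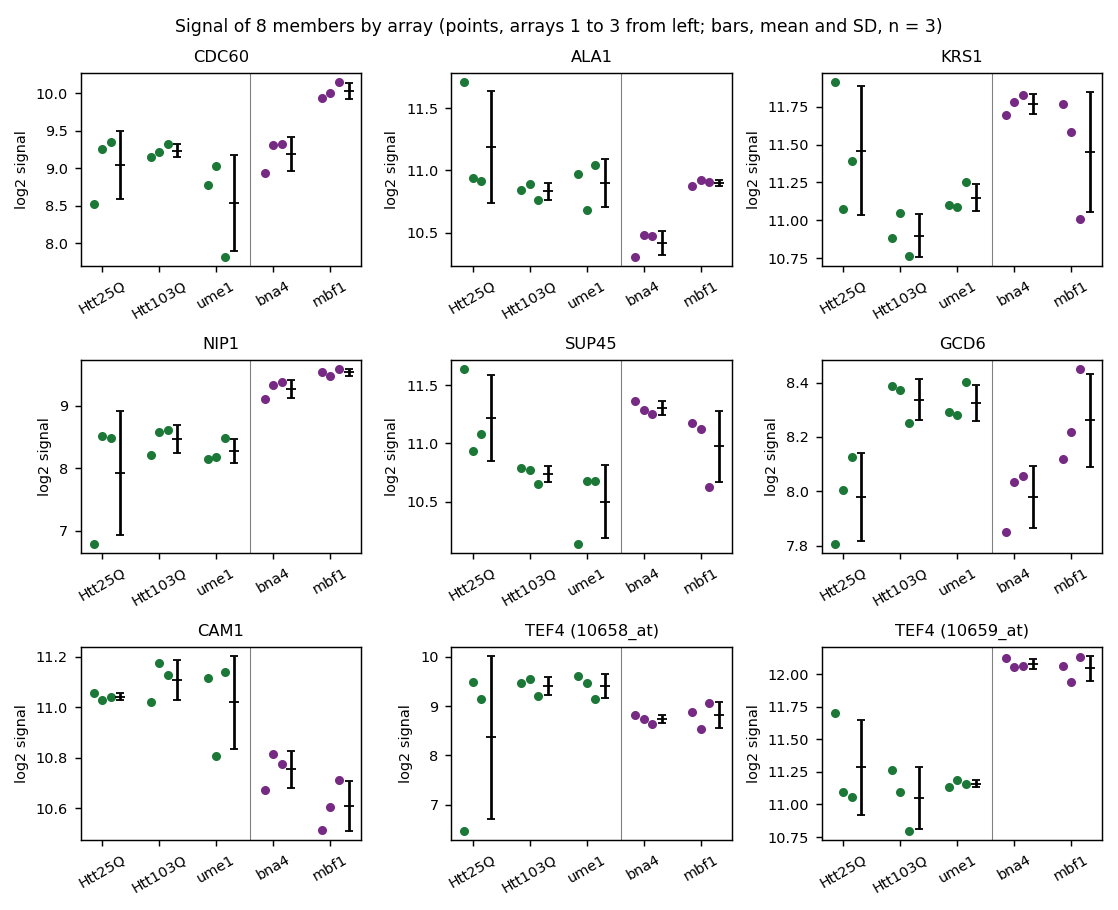
Log2 signal of 8 genes on every array (points, arrays 1 to 3 from left, green for the first and purple for the second processing set), with the mean and SD of each group (bars, n = 3). Axes are scaled to each probe set. CDC60 in the mbf1 deletion lies at 9.94 to 10.15, above all other arrays, and the first Htt25Q point of NIP1 and of TEF4 (10658_at), 6.78 and 6.46, lies far below its group.

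Among the factors that first meet the messenger RNA, SUI1 (eIF1) and TIF11 (eIF1A) act in start codon choice and CDC33 encodes eIF4E. None of the 3 was called, and their log2 fold changes within the sets lay between −0.33 and 0.30. CDC33 had 8.94, 10.45 and 10.46 in Htt25Q, with array 1 at −1.52 from the mean of the other two, while the Htt103Q arrays had 10.20, 10.42 and 10.11. Its log2 fold change, 0.30, turned to −0.21 without that array.

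The subunits of eIF2 are SUI2 (alpha, the subunit that is phosphorylated), SUI3 (beta) and GCD11 (gamma). Their log2 fold changes within the sets lay between −0.20 and 0.30, and none was called. All 3 had a lower mean in the mbf1 than in the bna4 deletion, with differences of −0.15 to −0.20. Only the arrays of SUI3 did not overlap, at 10.10, 10.14 and 10.24 in the bna4 against 10.05, 10.05 and 9.93 in the mbf1 deletion. For GCD11 the lower mean came from array 3 of the mbf1 deletion, at 9.44. The mean of arrays 1 and 2, 10.49, was above the bna4 mean of 10.34. For SUI2 array 3 departed upward, at 9.49 against a mean of 8.87 on arrays 1 and 2. In the first set SUI3 had 8.57, 9.44 and 9.37 in Htt25Q, 9.28, 9.35 and 9.64 in Htt103Q, and 9.08, 9.25 and 9.70 in the ume1 deletion. These groups overlapped, and the lowest of the 9 was again array 1 of Htt25Q, without which the difference of Htt103Q from Htt25Q went from 0.30 to 0.02.

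eIF2B consists of a regulatory part made of GCN3 (alpha), GCD7 (beta) and GCD2 (delta), and a catalytic part made of GCD1 (gamma) and GCD6 (epsilon, which carries the exchange activity). GCD6 had the smallest adjusted p of the members between Htt103Q and Htt25Q. Its signals were 7.81, 8.01 and 8.13 in Htt25Q, 8.39, 8.37 and 8.25 in Htt103Q, and 8.29, 8.28 and 8.40 in the ume1 deletion. Every Htt103Q and ume1 array was above every Htt25Q array. The log2 difference was 0.36 for Htt103Q against Htt25Q (SE 0.10, adjusted p = 0.0773) and 0.34 for the ume1 deletion against Htt25Q (SE 0.10, adjusted p = 0.0617). Between the ume1 deletion and Htt103Q it was −0.01 (95% interval −0.23 to 0.21). In the second set GCD6 had 7.85, 8.03 and 8.05 in the bna4 deletion and 8.12, 8.22 and 8.45 in the mbf1 deletion, again without overlap, with a log2 difference of 0.28 (SE 0.10, adjusted p = 0.113), or 0.19 without array 3 of the mbf1 deletion.

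GCN3, the subunit through which phosphorylated eIF2 is sensed, had the smallest adjusted p between the ume1 deletion and Htt103Q. Its signals were 7.93, 8.05 and 8.01 in Htt103Q and 7.33, 7.62 and 7.86 in the ume1 deletion, against 7.48, 7.83 and 7.93 in Htt25Q. The ume1 arrays lay below Htt103Q and overlapped Htt25Q. The log2 difference was −0.40 (SE 0.14, adjusted p = 0.229), and −0.26 without array 1 of the ume1 deletion (adjusted p = 0.578). For Htt103Q against Htt25Q it was 0.25 (SE 0.14, adjusted p = 0.405), and 0.12 without array 1 of Htt25Q.

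The eIF3 subunits were RPG1 (a), PRT1 (b), NIP1 (c), TIF34 (i) and TIF35 (g). For 4 of them the difference between Htt103Q and Htt25Q was much smaller without array 1 of Htt25Q. With all arrays PRT1, RPG1 and TIF34 had log2 fold changes of −0.54, −0.51 and −0.55, TIF35 was near 0, and NIP1 had 0.53. The adjusted p of PRT1 was 0.256 and that of TIF34 was 0.199. PRT1 had 10.76, 9.75 and 9.69 in Htt25Q and 9.58, 9.58 and 9.44 in Htt103Q, without overlap. TIF34 had 11.30, 10.46 and 10.35 against 10.37, 10.12 and 9.98, with overlap. Without array 1 of Htt25Q the log2 fold change was −0.19 for PRT1, −0.25 for RPG1, −0.25 for TIF34, −0.04 for NIP1 and 0.18 for TIF35. NIP1 had 6.78, 8.52 and 8.49 in Htt25Q and 8.21, 8.57 and 8.61 in Htt103Q, so that the low Htt25Q mean came from array 1.

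In the ume1 deletion RPG1 had 9.51, 9.88 and 9.88, all below the 10.83, 10.09 and 9.9986 of Htt25Q and within reach of the 10.02, 9.79 and 9.58 of Htt103Q. Its log2 fold change against Htt25Q was −0.55 (SE 0.27, adjusted p = 0.257), and −0.29 without array 1 of Htt25Q. In the second set PRT1 had 9.01, 9.12 and 9.17 in the bna4 deletion and 9.55, 9.42 and 9.69 in the mbf1 deletion. All mbf1 arrays were higher, with a log2 difference of 0.45 (SE 0.23, adjusted p = 0.293) in the fit to all arrays. NIP1 lay higher in the mbf1 deletion too, at 9.54, 9.47 and 9.58 against 9.10, 9.33 and 9.37, by 0.27 (SE 0.37, adjusted p = 0.848). TIF35 had 9.67, 9.28 and 8.39 in the mbf1 deletion, array 3 being at −1.08 from the mean of the other two, and its arrays overlapped those of the bna4 deletion.

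TEF4 and CAM1 encode 2 forms of the gamma subunit of elongation factor eEF1B, which reloads eEF1A with GTP. CAM1 was steady in the first set, at 11.05, 11.03 and 11.04 in Htt25Q, 11.02, 11.18 and 11.13 in Htt103Q, and 11.11, 10.81 and 11.14 in the ume1 deletion. The 3 groups overlapped, and the log2 fold changes lay between −0.09 and 0.07. In the second set it had 10.67, 10.81 and 10.77 in the bna4 deletion and 10.51, 10.61 and 10.71 in the mbf1 deletion. These overlapped as well, with a log2 difference of −0.14 (SE 0.09, adjusted p = 0.397).

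The probe sets of TEF4 went apart. The probe set 10659_at had 11.70, 11.09 and 11.06 in Htt25Q, 11.26, 11.09 and 10.80 in Htt103Q, and 11.13, 11.19 and 11.16 in the ume1 deletion. The probe set 10658_at had 6.46, 9.49 and 9.15 in Htt25Q, 9.48, 9.54 and 9.21 in Htt103Q, and 9.62, 9.48 and 9.14 in the ume1 deletion. Array 1 of Htt25Q was thus the highest of the first set for one probe set and the lowest for the other, at −2.85 from the mean of arrays 2 and 3. For Htt103Q against Htt25Q the log2 fold change of 10658_at was 1.04 (SE 0.60, adjusted p = 0.417), and 0.09 without that array. That of 10659_at was −0.24 (SE 0.16, adjusted p = 0.473), and −0.03 without it. In the second set 10659_at had 12.12, 12.05 and 12.07 in the bna4 deletion and 12.07, 11.94 and 12.13 in the mbf1 deletion, while 10658_at had 8.82, 8.75 and 8.65 against 8.88, 8.53 and 9.06. Both probe sets overlapped between these strains. YEF3, the fungal elongation factor eEF3, had log2 fold changes between −0.23 and 0.12 within the sets, none called.

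SUP45 encodes the release factor eRF1, which reads the stop codons. Its signals were 11.64, 10.93 and 11.08 in Htt25Q, 10.79, 10.77 and 10.66 in Htt103Q, and 10.14, 10.68 and 10.68 in the ume1 deletion. Both Htt103Q and the ume1 deletion lay below all arrays of Htt25Q. The ume1 deletion against Htt25Q gave a log2 difference of −0.72 (SE 0.21, 95% interval −1.17 to −0.27), with an adjusted p of 0.0573, the smallest of any member within the sets. It was −0.51 without array 1 of Htt25Q. Between Htt103Q and Htt25Q it was −0.48 (SE 0.21, adjusted p = 0.259), and −0.27 without that array. In the second set SUP45 had 11.37, 11.29 and 11.25 in the bna4 deletion and 11.18, 11.12 and 10.62 in the mbf1 deletion, lower on every array, with a mean difference of −0.33 (SE 0.21, adjusted p = 0.435), or −0.15 without array 3 of the mbf1 deletion.

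Synthetases and factors were set against each other by the difference of their median log2 fold changes. It was −0.15 for Htt103Q against Htt25Q, −0.01 for the ume1 deletion against Htt103Q, −0.19 for the ume1 deletion against Htt25Q, and 0.13 for the mbf1 against the bna4 deletion. For Htt103Q against Htt25Q the synthetase median was −0.20 and the factor median −0.05, and for the ume1 deletion against Htt25Q they were −0.26 and −0.07. Per array, the median difference of the synthetases from their Htt103Q means was 0.68 on array 1 of Htt25Q, 0.02 on array 2 and −0.01 on array 3. The factor median was 0.00, 0.08 and 0.03 on the same arrays, but single factors departed both ways on array 1, from −2.94 for TEF4 (10658_at) to 1.23 for PRT1. On that array 56.4% of the members lay over 0.5 from the mean of arrays 2 and 3, against 40.7% of all probe sets. Without it the difference between synthetase and factor medians was −0.0011 for Htt103Q against Htt25Q and 0.004 for the ume1 deletion against Htt25Q.

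**Figure D4:**
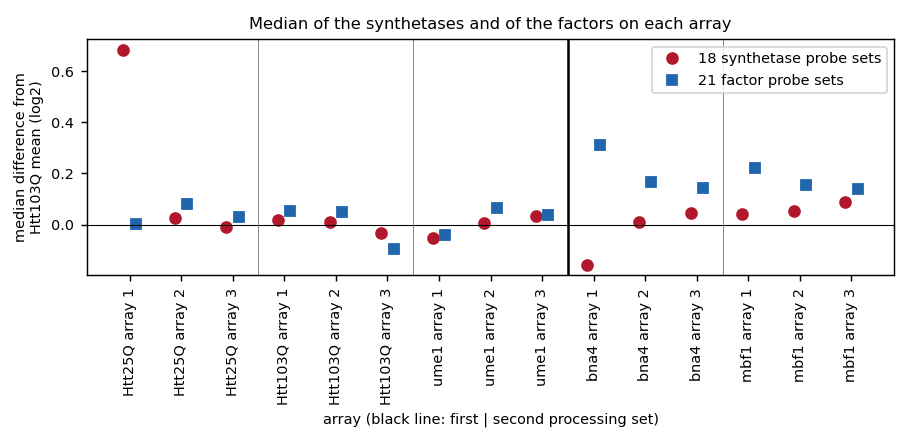
Median over the 18 synthetase probe sets (circles) and the 21 factor probe sets (squares) of the log2 difference from the Htt103Q mean, for each of the 15 arrays. The synthetase median of array 1 of Htt25Q, 0.68, stands alone, and the other arrays of the first set lie between −0.05 and 0.03 for synthetases.

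The spread within a group differed too. The median SD of the members was 0.37 in Htt25Q, against 0.25 for all probe sets of that group. It was 0.14 in Htt103Q, 0.18 in the ume1 deletion, 0.08 in the bna4 deletion and 0.14 in the mbf1 deletion, each within 0.01 of the median SD of all probe sets. In the mbf1 deletion array 3 departed most. On it 9 of the 39 probe sets lay over 0.5 from the mean of arrays 1 and 2, 23.1% against 16.2% of all probe sets, led by TIF35 (−1.08), GCD11 (−1.05), GCD7 (−0.97) and RPG1 (−0.86).

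One property of the genes ran along with the difference between the mbf1 and bna4 deletions. The annotated length of the 38 genes, introns included, ranges from 327 to 3315 bp. Across the 39 probe sets, length and log2 fold change had a Pearson r of 0.62 and a Spearman rho of 0.62. Among the 18 synthetases r was 0.73, among the 21 factor probe sets 0.53, and across all 6504 probe sets with a single gene 0.25. The 19 probe sets above the median length of 1665 bp had a median log2 fold change of 0.27, with 15 above 0. The 20 others had a median of −0.10, with 7 above 0. Without array 3 of the mbf1 deletion r was 0.61. In the other comparisons r lay between −0.29 and 0.12 across the members. All points of such a correlation come from the same arrays and share their labelling and normalization. The actin control also differed between these arrays. Its 3′ minus 5′ signal was 0.16, 0.11 and 0.10 in the bna4 deletion and −0.13, 0.06 and −0.33 in the mbf1 deletion, without overlap. The part of RNA quality in the trend with length was not tested. The part of length in the differences of CDC60, ALA1 and PRT1, which are all above the median length, was not tested.

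**Figure D5:**
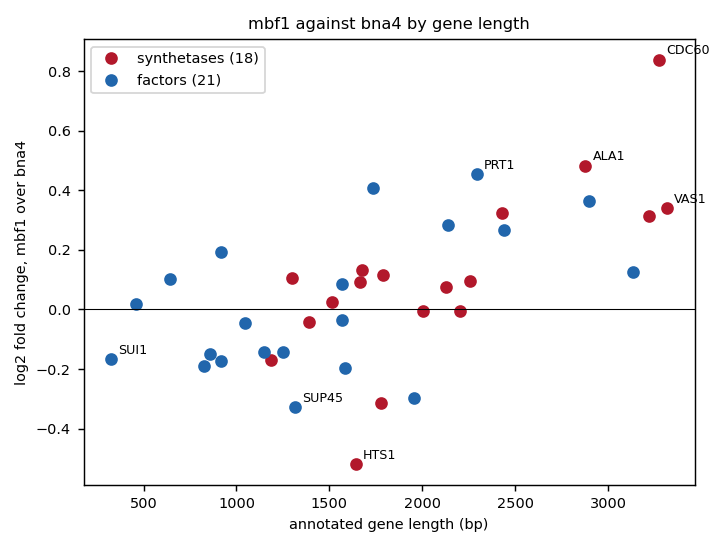
Annotated gene length in bp (horizontal) and log2 fold change of the mbf1 against the bna4 deletion (vertical) for the 39 probe sets, synthetases in red and factors in blue. The longer genes lie higher (Pearson r 0.62), with CDC60 at the top right and HTS1 and SUP45 lowest.

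Comparing the bna4 and mbf1 deletions with Htt103Q crosses the processing sets, so strain and set cannot be told apart, and both comparisons share the Htt103Q arrays. The values are therefore given side by side as a description. For the bna4 deletion 13 of 39 probe sets were called, 9 higher and 4 lower, where 44.1% of all probe sets were called. For the mbf1 deletion 7 were called, 5 higher and 2 lower, where 36.5% of all were. The arrays did not overlap for 28 members in the bna4 deletion (68.8% of all probe sets) and for 16 in the mbf1 deletion (57.8%). The share of members called lay below that of all probe sets in both comparisons.

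TEF4 (10659_at) had the largest difference among the called members in the bna4 deletion, 1.03 (SE 0.16, adjusted p = 0.000313), and 0.995 in the mbf1 deletion (SE 0.16, adjusted p = 0.000517). The other TEF4 probe set had −0.67 and −0.59 and was not called, so the direction of TEF4 rests on the probe set. CAM1 was lower in both, with −0.35 (adjusted p = 0.0059) and −0.50 (adjusted p = 0.000881). MES1 was called lower in both as well, with −0.59 and −0.49, and GRS1 and YEF3 higher, with 0.50 and 0.49 for GRS1 and 0.41 and 0.54 for YEF3. KRS1 was higher in the bna4 deletion by 0.87 (SE 0.21, adjusted p = 0.00668). It had 11.70, 11.78 and 11.82 there, all above every Htt103Q array.

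GLN4, the synthetase for glutamine, had 7.75, 7.95 and 8.01 in the bna4 deletion and 7.97, 8.15 and 8.57 in the mbf1 deletion, against 8.64, 8.65 and 8.75 in Htt103Q. All 6 arrays of the second set were lower. It was called in the bna4 deletion, at −0.78 (SE 0.26, adjusted p = 0.0304), but leaving out any one array gave adjusted p-values of 0.0536 to 0.0945. NIP1 was higher in both strains, by 0.80 in the bna4 deletion (SE 0.37, adjusted p = 0.102) and by 1.07 in the mbf1 deletion (SE 0.37, adjusted p = 0.0415). The latter call was lost without any one array, with adjusted p-values of 0.0706 to 0.122. SUI3 was higher by 0.74 (adjusted p = 0.0171) and by 0.59 (adjusted p = 0.0551) in these strains. CDC60 was higher by 0.80 in the mbf1 deletion (adjusted p = 0.0528), and its mean in the bna4 deletion was close to that of Htt103Q, 9.19 against 9.23. The remaining calls in the bna4 deletion were GCD2, TIF34, SUP45 and SUI2 (0.55 to 0.64) and GCD6 (−0.36), and in the mbf1 deletion GCN3 (0.40). In the bna4 deletion the calls on TEF4, CAM1, MES1, GRS1, KRS1 and GCD2 held without any one of the 6 arrays compared. Each of the others was lost without at least 1 of these arrays. In the mbf1 deletion those on TEF4, CAM1, MES1, GRS1 and YEF3 held, and those on NIP1 and GCN3 did not. YEF3 in the bna4 deletion was 0.28 without array 3 of Htt103Q (adjusted p = 0.115).

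The list of other cytosolic translation genes comprised 42 genes with 58 probe sets. It also held ELF1, which encodes a transcription elongation factor and was not called in any comparison within the sets. For Htt103Q against Htt25Q 1 was called (4.44% of all probe sets), HBS1, which rescues stalled ribosomes. Its signals were 7.11, 7.39 and 7.25 in Htt25Q and 7.89, 7.63 and 7.59 in Htt103Q, higher on every array. It was higher by 0.45 (SE 0.10, adjusted p = 0.0249), and the call was lost without array 1 of Htt25Q, or array 1 or 2 of Htt103Q, with adjusted p-values of 0.0566 to 0.0649.

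For the ume1 deletion against Htt103Q the single call (2.6% of all) was ANB1, the form of eIF5A that yeast makes in low oxygen. ANB1 had 4.33, 3.98 and 4.06 in Htt103Q and 6.09, 5.95 and 6.05 in the ume1 deletion, a log2 difference of 1.91 (SE 0.28, adjusted p = 0.00526). Against Htt25Q the ume1 deletion had 1 called higher and 2 lower, 5.17% of the 58, where 7.86% of all probe sets were called. DBP1, a helicase related to the initiation helicase Ded1, was higher by 1.92 (SE 0.39, adjusted p = 0.0125). Array 1 of Htt25Q had 3.71 for DBP1 and the other two 5.48 and 5.49, and the ume1 arrays were at 7.10, 6.69 and 6.65. TMA64, a ribosome-associated protein, was lower, with a log2 difference of −0.98 (adjusted p = 0.0496). Of GCN1, which activates the eIF2 kinase Gcn2, the probe set 5184_at was lower, with a log2 difference of −0.74 (adjusted p = 0.0426). The other probe sets annotated to GCN1 all had a higher mean in the ume1 deletion, and none was called. The brightest of them, 2184_s_at, had 6.89, 8.46 and 8.58 in Htt25Q and 8.46, 8.57 and 8.35 in the ume1 deletion. The direction of GCN1 thus rests on the probe set. The call on TMA64 was lost without any one array of the ume1 deletion, with adjusted p-values of up to 0.153, and its difference was −0.58 without array 1 of Htt25Q. That on GCN1 was lost without any one array other than array 3 of Htt25Q, with adjusted p-values of up to 0.141.

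The mbf1 against the bna4 deletion had 6 calls in this list, 4 higher and 2 lower. They were 10.3% of the 58, close to the 10.5% of all probe sets. Gene length ran along with this comparison across all 6504 probe sets with a single gene (Pearson r 0.25). The part of length in these calls was not tested. ANB1 had 8.91, 8.16 and 8.24 in the bna4 deletion and 5.09, 5.03 and 5.54 in the mbf1 deletion, a log2 difference of −3.22 (SE 0.28, adjusted p = 4.5e-05). HEF3, a second gene for eEF3, had 6.63, 6.64 and 6.39 against 5.07, 4.70 and 5.07, a log2 difference of −1.60 (SE 0.21, adjusted p = 0.000624). In both genes the bna4 deletion also stood above the 3 groups of the first set, whose means were 4.12 to 6.03 for ANB1 and 4.64 to 5.14 for HEF3. That comparison crosses the processing sets, so strain and set cannot be told apart in it. Higher in the mbf1 deletion were NEW1, a translation ATPase related to eEF3 (0.92, SE 0.17, adjusted p = 0.00438), CLU1, which copurifies with eIF3 (0.89, SE 0.14, adjusted p = 0.00196), and GCN1 (5184_at, 0.79, SE 0.20, adjusted p = 0.0246). That on GCN1 was lost without array 1 or 3 of the bna4 or array 1 or 2 of the mbf1 deletion, with adjusted p-values of up to 0.101. The sixth was a probe set of the helicase gene SLH1 (2169_s_at, 2.46, SE 0.62, adjusted p = 0.0283). It was lost without any one array other than array 3 of the mbf1 deletion, with adjusted p-values of up to 0.109. No other probe set annotated to SLH1 or GCN1 was called there, and the platform annotation that ties 2169_s_at to SLH1 can be old, so whether it reports this gene is uncertain.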

How the data were processed

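Biotin-labelled total RNA was hybridised to 15 Affymetrix Yeast Genome S98 arrays, which the titles in the labels put in 5 groups of 3. The deposited values are log2 signals, 1 per probe set and array. How the authors summarised and normalized them: not given in the sources used here. Of 9335 probe sets, 60 control probe sets were left out. Quantile normalization over the remaining 9275 followed, since array medians differed by more than 0.1 between the processing sets; it makes every change relative to the other probe sets. Genes were named through the platform annotation (6504 probe sets with 1 gene symbol), and lengths come from the RefSeq gene table of assembly R64. Group means were fitted in limma 3.58.1 (R 4.3.3), over all arrays in one model, with moderated two-sided tests. The procedure was tested on simulated data for Htt103Q against Htt25Q only. The simulated noise was independent, with no departing array and no processing sets, so the test does not cover those conditions. The number of arrays limits the precision.

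The members and the other gene lists were chosen with earlier results of these data known, so no p is adjusted over a list alone, no set test was run, and a list is described by counts and medians. Genes are named by a rule: in each comparison within a set every called member up to 10, or the 4 with the largest change where fewer than 4 were called; in each comparison across sets the 4 largest; TEF4 and CAM1 in every group; other translation genes called, up to 6 a comparison; and the deleted genes. Any further member given with its own values was chosen after its values were seen. TIF1 and TIF2, TEF1 and TEF2, and EFT1 and EFT2 share probe sets and are not reported. Same-numbered arrays of different groups correlated at −0.169 to 0.434 in their deviations from group means (30 pairs). The highest values, 0.434 and 0.34, were those of arrays 3 and arrays 1 of Htt103Q and the ume1 deletion. The lowest was that of arrays 2 of the same groups. Arrays were treated as unpaired. Differently numbered arrays were not set beside these pairs, so whether a number marks a shared batch was not tested. Alternatives covered deposited values, each processing set alone, 6 arrays alone, a replicate block, a filter at a mean log2 signal of 5, array weights, 1 probe set a gene, and arrays left out.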

Additional observations from a re-analysis of the deposited data

How the results depend on the processing

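With deposited values 4 members were called for the ume1 deletion against Htt25Q (0 otherwise) and 11 for the mbf1 deletion against Htt103Q (7 otherwise). With the 6 arrays of a comparison alone, 3 were called for the mbf1 against the bna4 deletion, 25 for the bna4 deletion against Htt103Q (13 otherwise) and 12 for the mbf1 deletion against Htt103Q; with the second set alone the mbf1 against the bna4 deletion had 3, or 5 with deposited values. Array weights gave 2 for Htt103Q against Htt25Q, 2 for the ume1 deletion against Htt103Q, 10 for the mbf1 against the bna4 deletion, and 26 and 19 for the bna4 and mbf1 deletions against Htt103Q. Leaving out array 1 of Htt25Q and array 1 of the ume1 deletion gave 4 for the mbf1 against the bna4 deletion, and 21 and 15 for the bna4 and mbf1 deletions against Htt103Q. A filter on dim probe sets and 1 probe set a gene each gave 1 for the ume1 deletion against Htt25Q, which was SUP45. The replicate block gave 1 member, GCD6, for Htt103Q against Htt25Q and 1, again GCD6, for the ume1 deletion against Htt25Q. Whether same-numbered arrays share more than a number was not tested. Each of the 6 arrays of a comparison was also left out in turn, and no array of another group. This gave 0 to 2 called members for Htt103Q against Htt25Q and 0 to 3 for the ume1 deletion against Htt25Q. The most in both came without array 3 of Htt25Q. In the latter 1 was called without array 1 or 2 of Htt25Q or array 3 of the ume1 deletion. The other comparisons within sets had 0 each time. Across sets, against Htt103Q, there were 7 to 10 (bna4 deletion) and 5 to 7 (mbf1 deletion). The difference of synthetase and factor medians then ranged from −0.269 to −0.0011 for Htt103Q against Htt25Q, −0.0604 to 0.0446 for the ume1 deletion against Htt103Q, −0.277 to 0.004 for the ume1 deletion against Htt25Q and 0.0787 to 0.151 for the mbf1 against the bna4 deletion. It was −0.0591 with deposited values for the ume1 deletion against Htt103Q, in the fit to all arrays and to the first set alone, 0.0766 with array weights for the mbf1 against the bna4 deletion, and 0.059 without both arrays for the ume1 deletion against Htt25Q. Under that setting TEF4 (10658_at) turned from 1.04 to −0.01. The causes of the moves were not tested. Alternative values were counted for the genes in the comparisons where the naming rule picked them. Of these, 431 kept direction and side of the threshold, 54 fell short of it, 34 passed it and 1 turned. Turns of other genes described singly are not in this count. CDC33, NIP1 and TIF35 turned for Htt103Q against Htt25Q without array 1 of Htt25Q.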

Other observations

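The synthetases of mitochondria, 14 genes with 14 probe sets, are separate nuclear genes from the cytosolic ones except where one gene serves both places. Within the processing sets 0 were called for Htt103Q against Htt25Q and 0 for the ume1 deletion against Htt103Q, with 4 and 1 at an unadjusted p under 0.05 in limma, where 17.3% and 13.4% of all probe sets were. AIM10, for proline, was higher in the ume1 deletion than in Htt25Q by 0.43 on the log2 scale (SE 0.09, adjusted p = 0.0174), the only call of that comparison in this list, where 7.86% of all probe sets were called. The call was lost without array 2 of the ume1 deletion (adjusted p = 0.0646). In the mbf1 deletion 3 were called higher than in the bna4 deletion and none lower, where 10.5% of all probe sets were called. ISM1, for isoleucine, had 7.16, 7.08 and 6.85 against 6.14, 6.07 and 6.46, with a difference of 0.81 (SE 0.14, adjusted p = 0.00361). DIA4, for serine, had 5.27, 5.15 and 5.33 against 4.47, 4.54 and 4.56, with a difference of 0.73 (SE 0.12, adjusted p = 0.00291), and NAM2, for leucine, had 5.36, 5.34 and 5.31 against 4.34, 4.67 and 4.76, with a difference of 0.75 (SE 0.17, adjusted p = 0.0164). The arrays of all 3 genes did not overlap between these strains. The call on NAM2 was lost without array 1 of the bna4 or array 1 of the mbf1 deletion, with adjusted p-values of 0.0708 and 0.0549. DIA4 and NAM2 were chosen for mention after their values were seen. The part of gene length in these 3 calls was not tested. Against Htt103Q, across the processing sets, 9 of the 14 were called lower in the bna4 and 7 in the mbf1 deletion and none was called higher, where 44.1% and 36.5% of all probe sets were called in either direction. In these comparisons strain and set cannot be told apart. Counted by direction alone, 12 and 13 lay below 0, where 49.3% and 49.5% of all probe sets did.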
